A study of Mus musculus with 36 samples.

Results

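The 10 genes described here encode 6 matrix metalloproteinases (Mmp2, Mmp3, Mmp9, Mmp12, Mmp14 and Mmp19), a related protease (Adamts1) and 3 tissue inhibitors of metalloproteinases (Timp1, Timp2 and Timp3). They were taken by symbol from the 55421 genes of the deposited table, and all 10 were among the 19478 genes with enough counts to be tested. Transcripts were sequenced from right hippocampal slices of 16-month-old wild-type C57BL/6 mice (WT) and of T41B mice, Line 41 animals in which a Thy1 cassette drives human APP with the London and Swedish mutations. Each mouse had been dosed by oral gavage for 3 months with vehicle or with BD10-2, a small molecule that partially activates TrkB and TrkC, receptors for neurotrophins. A slice then received either theta-burst stimulation, which was 3 trains of 10 bursts spaced by 200 ms with 4 pulses at 100 Hz in each burst, or a sham procedure without stimulation that lasted as long, and was frozen at its end. The 8 groups held 4 mice each under vehicle (WT sham, WT stimulated, T41B sham, T41B stimulated), 3 mice each for BD10-2-treated WT slices and 5 mice each for BD10-2-treated T41B slices. The transgene is driven mainly in neurons by its promoter, and unsliced tissue was not analysed here.

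Matrix metalloproteinases are zinc-dependent enzymes that cut collagens, laminins, proteoglycans, cell-surface receptors and cytokines. They are made as inactive precursors, are activated by other proteases such as plasmin and furin, and are blocked by the TIMP inhibitors, which bind the active site. In the hippocampus they remodel the matrix around synapses and blood vessels, and Mmp9 and Mmp3 in particular are known for roles in synaptic plasticity, while Mmp12 is known as a macrophage enzyme.

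Library totals ran from 11597555 to 28125842 expected counts, with a median of 18082415, and mitochondrial genes took 2.00% to 5.40% of the counts. The 36 libraries came from 18 mice and made 32 samples once the libraries that share a mouse and a slice type had been added. Thy1, which also reads the transgene cassette, was at 253 to 403 CPM in WT samples and at 1034 to 2506 CPM in T41B samples, so no sample went against its genotype label. CPM is the count per 1000000 counts of the TMM-scaled library. Summed markers of hippocampal neurons lay between 4260 and 6572 CPM in all samples. Most of this sum was Camk2a (median 3668 CPM), a gene of forebrain neurons in general, so it cannot tell the hippocampus from other forebrain tissue. In 6 vehicle samples the summed choroid plexus markers exceeded 100 CPM (115 to 1215 CPM): the stimulated WT slices of Mouse1509 and Mouse1513, and both slices of T41B Mouse1551 and Mouse1553. The 2 libraries of each of the 4 same-label pairs differed by more than counting error. Their chi-square over genes, divided by its degrees of freedom, was 31.6 in sham WT Mouse1565, 24 in sham T41B Mouse1557, 13.7 in stimulated T41B Mouse1592 and 8.10 in stimulated WT Mouse1586, all under BD10-2. In Mouse1592 the libraries held Thy1 at 918 CPM, the lowest of all T41B libraries, and 1937 CPM, and Timp1 at 0.915 and 7.66 CPM. Results that depend on these samples are given with and without them, and every fit was repeated with only the first or only the second library of each pair.

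Mmp3 and Mmp12 lie in the same cluster of metalloproteinase genes on chromosome 9, which in the GENCODE annotation of GRCm38 holds 10 Mmp genes between positions 7272514 and 7699585. Mmp3 (ENSMUSG00000043613) occupies chr9:7445822-7455975 and Mmp12 (ENSMUSG00000049723) chr9:7344381-7369499, both on the plus strand, with their starts 101 kb apart. Mmp13 and Mmp10 flank them in the cluster. These 4 genes were the cluster's only genes to pass the count filter, and all 4 were higher after stimulation in every combination. Mmp3, Mmp10 and Mmp13 had 21, 6 and 29 counts over all sham slices and 2301, 283 and 1947 over all stimulated slices. They thus passed the filter through their stimulated slices, and that every gene passing it was higher was in part fixed by the filter. The promoters of the 4 genes are shown here. Those of Mmp10 and Mmp13 were added to the search after the matches in Mmp3 and Mmp12 and the values of these genes had been seen. The sequences are from the RefSeq promoter table of build GRCm38.p6, run 5′ to 3′ on the plus strand from 130 bases before the annotated start to 19 bases after it, and have the AP-1 motif TGANTCA and the TATA motif TATAAA in capitals. AP-1 is the dimer of Fos and Jun proteins. The stretches are chr9:7445692-7445841 for Mmp3, chr9:7347244-7347393 for the second annotated start of Mmp12, chr9:7502212-7502361 for Mmp10 and chr9:7272384-7272533 for Mmp13.
Mmp3: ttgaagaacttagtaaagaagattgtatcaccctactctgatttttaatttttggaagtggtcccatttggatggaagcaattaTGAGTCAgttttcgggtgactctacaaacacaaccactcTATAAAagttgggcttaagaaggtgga
Mmp12: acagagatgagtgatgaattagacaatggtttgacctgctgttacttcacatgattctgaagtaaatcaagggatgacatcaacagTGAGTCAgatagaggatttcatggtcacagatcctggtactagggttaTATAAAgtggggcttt
Mmp10: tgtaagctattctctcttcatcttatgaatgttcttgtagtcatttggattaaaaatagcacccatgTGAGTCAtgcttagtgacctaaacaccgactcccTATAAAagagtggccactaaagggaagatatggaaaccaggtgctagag
Mmp13: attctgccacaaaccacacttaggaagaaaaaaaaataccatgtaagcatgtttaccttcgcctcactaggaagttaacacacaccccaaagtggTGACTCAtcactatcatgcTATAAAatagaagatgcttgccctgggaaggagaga

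With the start base counted as 0, the AP-1 motif stood at -46 to -40 in Mmp3, -44 to -38 in Mmp12, -63 to -57 in Mmp10 and -35 to -29 in Mmp13. The TATA motif stood at -7 to -2 in Mmp3, at 4 to 9 in Mmp12, which is downstream of its annotated start, at -29 to -24 in Mmp10 and at -16 to -11 in Mmp13. Adamts1 also held a TATA motif, at -32 to -27. Searched on both strands of the 300-base windows, TGANTCA occurred in 7.81% of 32851 promoters and TATAAA in 13.6%. Of the 10 genes, 7 had a window in the table (8 windows, since Mmp12 has 2), and only Mmp3 and Mmp12 among these 7 held the AP-1 motif. In Mmp12 it stood in the window of the second annotated start, which is the one printed, and the window of the first start (chr9:7344147-7344446) held neither the AP-1 nor the TATA motif. Mmp2, Mmp9 and Mmp19 had no entry. The windows of Mmp14, Timp1, Timp2, Timp3 and Adamts1 each held 1 to 3 copies of GGGCGG, which occurred in 35.7% of all promoters on either strand. The fourth motif searched, the NF-kB consensus, occurred in 4.51% of all promoters and in no window of the 7 genes, Mmp10 or Mmp13. A motif match describes these letters only, and binding was not measured.

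The first comparison asked what theta-burst stimulation did to these transcripts, within each combination of genotype and treatment. Mmp3, Mmp12, Mmp14, Mmp19, Timp1 and Adamts1 rose in all 4 combinations, and Timp3 rose in T41B slices under vehicle and under BD10-2. That made 6, 7, 6 and 7 of the 10 genes called higher in WT vehicle, T41B vehicle, WT BD10-2 and T41B BD10-2 slices, and 0 called lower. Over all genes tested, 12.3%, 21.5%, 8.87% and 22.9% were called in either direction in the same 4 comparisons, and 8.21%, 11.7%, 6.29% and 13.3% were called higher, with 4.10%, 9.83%, 2.58% and 9.52% called lower. The median log2 fold change of the 10 genes was 1.02, 1.45, 1.20 and 1.45, against -0.01, -0.05, -0.01 and -0.04 over all genes. The threshold for a call was 0.05 for the edgeR adjusted p. The plot of log2 fold changes by combination shows these values for each gene.

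**Figure D1:**
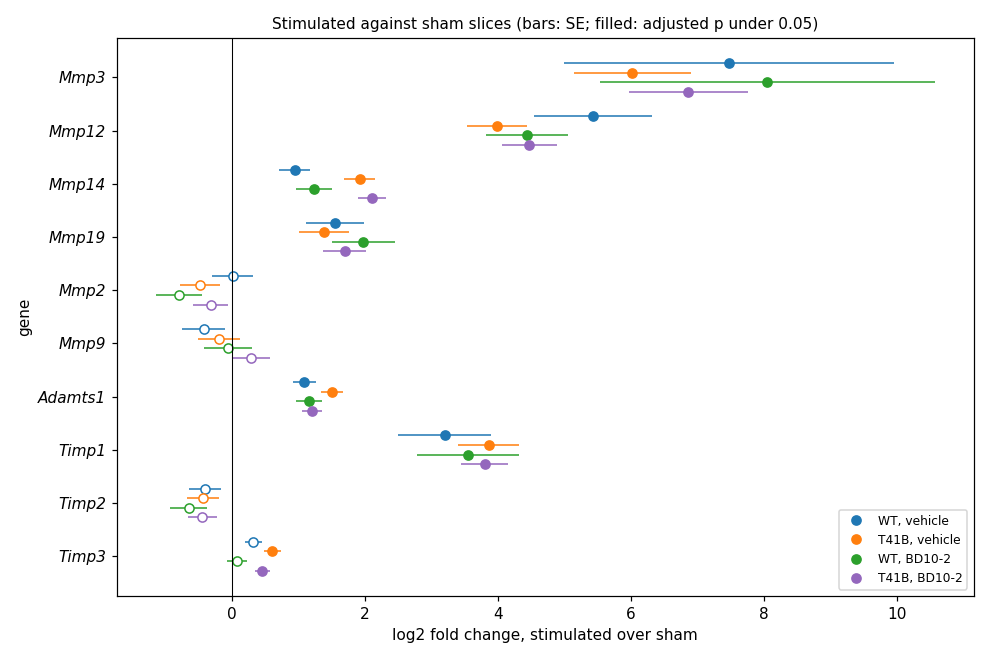
Log2 fold change of stimulated over sham slices (x axis) for each of the 10 genes (y axis), with the SE as bars, in the 4 combinations of genotype and treatment. Filled points passed an edgeR adjusted p of 0.05; Mmp3 and Mmp12 lie farthest to the right, and Mmp2, Mmp9 and Timp2 have open points in all 4 combinations.

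Mmp3, or stromelysin 1, cuts proteoglycans and laminin and activates other metalloproteinases. In sham WT slices it was almost absent. It was at 0, 0.0721, 0 and 0 CPM in the 4 vehicle mice and at 0.0197, 0 and 0 CPM in the 3 BD10-2 mice, which is 1 count in each group. After stimulation it was at 5.05, 4.57, 4.58 and 1.04 CPM in the WT vehicle mice and at 4.46, 4.46 and 4.71 CPM in the WT BD10-2 mice. No stimulated slice overlapped a sham slice. The ratio of the summed counts, scaled for depth, was 255 in WT vehicle slices (95% counting interval 45.4 to 10086) and 399 in WT BD10-2 slices (71.2 to 15820). These intervals cover counting error only, and a fold change fitted to a group with 1 count depends on the prior count. In T41B mice Mmp3 was at 0.188, 0.197, 0.106 and 0.0525 CPM in sham vehicle slices and at 9.91, 11.7, 11.6 and 3.19 CPM after stimulation. That was a log2 fold change of 6.02 ± 0.88 (± is the SE of the fit for every fold change here; edgeR adjusted p = 7.63e-08). The BD10-2-treated T41B slices held 0.0515 to 0.165 CPM without stimulation and 13.5, 9.72, 18.7, 1.68 and 10.0 CPM with it, a log2 fold change of 6.86 ± 0.90 (edgeR adjusted p = 1.07e-09). The 1.68 CPM belongs to Mouse1592.

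Mmp12, the macrophage elastase, showed a similar pattern from a slightly higher base. WT vehicle slices held 0.178, 0.0721, 0.189 and 0 CPM after sham treatment and 3.52, 4.90, 7.61 and 3.75 CPM after stimulation, a log2 fold change of 5.43 ± 0.88 (edgeR adjusted p = 1.99e-07). T41B vehicle slices held 0.63, 0.790, 0.903 and 0.577 CPM after sham treatment and 12.2, 14.3, 12 and 7.74 CPM after stimulation, with a log2 fold change of 3.98 ± 0.45 (edgeR adjusted p = 6.40e-08). Under BD10-2 the log2 fold changes were 4.43 ± 0.62 in WT slices and 4.47 ± 0.42 in T41B slices. The lowest stimulated slice of any group (3.52 CPM) was above the highest sham slice (0.903 CPM).

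The other genes of the chromosome 9 cluster fell into expressed and silent ones. Mmp13, collagenase 3, was called in all 4 comparisons and averaged 0.0675 ± 0.0782 CPM (SD, n = 4) in sham WT vehicle slices and 2.96 ± 1.13 CPM in stimulated ones, and 0.0856 ± 0.0682 and 8.44 ± 2.76 CPM in T41B vehicle slices. Mmp10, stromelysin 2, had 6 counts over all sham slices and 283 over all stimulated slices, and was also called in all 4 comparisons. Mmp10 was chosen for its position after its values were seen. Mmp8 and Mmp1a summed to 6 and 2 counts over all samples, and Mmp1b, Mmp7, Mmp20 and Mmp27 to 0.

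Mmp14, the membrane-bound enzyme that activates Mmp2, was expressed at a moderate level in every sham slice. WT vehicle slices held 9.66, 9.22, 11.3 and 12.8 CPM after sham treatment and 20.2, 17.2, 23.1 and 22.2 CPM after stimulation, a log2 fold change of 0.94 ± 0.24 (edgeR adjusted p = 0.0073). T41B vehicle slices held 11.4, 13.4, 12.1 and 11.4 CPM after sham treatment and 44.5, 60.1, 43.8 and 34.4 CPM after stimulation, a log2 fold change of 1.92 ± 0.23 (edgeR adjusted p = 4.23e-07). In BD10-2 slices the log2 fold change was 1.23 ± 0.27 in WT and 2.11 ± 0.20 in T41B mice. Sham and stimulated slices did not overlap in any of the 4 combinations. In WT vehicle slices the call was lost without Mouse1509, whose stimulated slice held choroid plexus markers (log2 fold change range 0.91 to 1.07 over the alternatives, highest adjusted p = 0.0511). It passed in the other 12 alternatives, among them the fit without the samples with choroid plexus markers.

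Mmp19 (ENSMUSG00000025355, chr10:128790910-128800824), a secreted enzyme of the basement membrane, was low and more variable. It was at 0.593, 1.22, 1.07 and 0.404 CPM in sham WT vehicle slices and at 3.52, 3.36, 1.6 and 0.983 CPM after stimulation, where the groups overlapped. Its log2 fold changes were 1.55 ± 0.44, 1.39 ± 0.37, 1.98 ± 0.47 and 1.69 ± 0.33 in WT vehicle, T41B vehicle, WT BD10-2 and T41B BD10-2 slices, with edgeR adjusted p of 0.0172, 0.00757, 0.0059 and 0.000292. Without the 6 samples with choroid plexus markers the value was 0.69 in WT vehicle slices (edgeR adjusted p = 0.312) and 1.12 in T41B vehicle slices (0.146), so both calls were lost. The WT vehicle call was also lost without Mouse1509 (1.16, edgeR adjusted p = 0.181), without Mouse1513 (1.59, 0.0539) and in a fit of only the groups compared (1.56, 0.0707), and the T41B vehicle call without Mouse1553. In the BD10-2 slices, whose choroid plexus markers summed to 15 to 29.6 CPM, the WT call was lost without Mouse1565 or Mouse1571, and the T41B call passed in all 15 alternatives run. Exons of Mmp19 share 789 bases with Tmem198b on the other strand, and Tmem198b was not called in any stimulation comparison.

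Mmp2 and Mmp9, the gelatinases, did not pass the test in any stimulation comparison. Mmp2 lay between 0.770 and 4.00 CPM in all samples, and its log2 fold change ran from -0.79 ± 0.35 in WT BD10-2 slices to 0.01 ± 0.31 in WT vehicle slices. For Mmp9, levels lay between 0.424 and 1.72 CPM and log2 fold changes between -0.42 ± 0.32 and 0.28 ± 0.29. At these counts, which for Mmp9 were 8 to 38 per sample, the 95% intervals of the 4 Mmp9 fold changes reached from -1.08 to 0.87.

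Adamts1, a protease that cuts the proteoglycans aggrecan and versican, had by far the most counts of the 7 proteases. In sham slices it was at 128, 124, 155 and 132 CPM in WT vehicle mice and at 182, 170, 117 and 170 CPM in T41B vehicle mice. Stimulated slices of the same groups held 322, 283, 290 and 253 CPM and 462, 469, 530 and 354 CPM. The log2 fold changes were 1.09 ± 0.17 (edgeR adjusted p = 4.26e-05) and 1.51 ± 0.17 (edgeR adjusted p = 1.73e-07), and 1.16 ± 0.20 and 1.20 ± 0.15 in the BD10-2 slices of WT and T41B mice. No stimulated slice of any combination overlapped its sham group.

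Of the inhibitors, Timp1 (ENSMUSG00000001131, chrX:20870166-20874735), a secreted inhibitor known to be inducible, changed most. WT vehicle slices held 0.119, 0.0721, 0.126 and 0.173 CPM after sham treatment and 1.39, 1.27, 1.56 and 0.492 CPM after stimulation, a log2 fold change of 3.20 ± 0.70 (edgeR adjusted p = 0.000228). T41B vehicle slices held 0.313, 0.346, 0.213 and 0.577 CPM after sham treatment and 2.91, 3.75, 10.2 and 4.62 CPM after stimulation, a log2 fold change of 3.86 ± 0.46 (edgeR adjusted p = 8.21e-08). T41B BD10-2 slices went from 0.541, 0.247, 0.622, 0.751 and 0.794 CPM to 11.8, 8.54, 11.1, 4.58 and 6.40 CPM, a log2 fold change of 3.80 ± 0.36 (edgeR adjusted p = 1.60e-09). In WT BD10-2 slices the stimulated values were 0.811, 1.39 and 0.744 CPM and the log2 fold change was 3.55 ± 0.77. Timp1 lies inside the synapsin gene Syn1 on the opposite strand with no shared exonic base, and Syn1 was not called in any stimulation or genotype comparison.

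Timp3, which binds to the matrix and also blocks ADAM and ADAMTS proteases, changed less. It was at 87.1, 81.8, 70.5 and 74.0 CPM in sham and at 127, 129, 118 and 103 CPM in stimulated T41B vehicle slices, a log2 fold change of 0.61 ± 0.13 (edgeR adjusted p = 0.000845). In T41B BD10-2 slices the groups overlapped (77 to 96 CPM and 88.9 to 148 CPM), and the log2 fold change was 0.46 ± 0.11 (edgeR adjusted p = 0.00346). In WT slices it was 0.33 ± 0.13 under vehicle (edgeR adjusted p = 0.0954) and 0.08 ± 0.15 under BD10-2. With mouse as a replicate block, the WT vehicle value was 0.32 and passed (edgeR adjusted p = 0.0414). Without the samples with choroid plexus markers, the T41B vehicle value was 0.51 and did not pass (edgeR adjusted p = 0.108). Timp3 lies inside Syn3 on the opposite strand and shares 1733 exonic bases with it, and Syn3 was not called in these comparisons. How the counting treated the strand is not given in the sources used here, so reads in shared exons could be assigned to either gene.

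Timp2, the inhibitor that also takes part in Mmp2 activation by Mmp14, was the most abundant inhibitor. Per kilobase of exon it was at 38.7 ± 12.1 CPM (SD, n = 4) in sham WT vehicle slices, against 25.4 ± 2.66 for Adamts1, 8.99 ± 0.79 for Timp3, 1.8 ± 0.27 for Mmp14 and at most 0.57 for the other 6 genes. Timp2 was at 155, 99.4, 136 and 213 CPM in sham WT vehicle slices and at 112, 97.8, 111 and 136 CPM in stimulated ones. Its log2 fold changes were -0.40 ± 0.24, -0.44 ± 0.24, -0.65 ± 0.28 and -0.44 ± 0.22 in WT vehicle, T41B vehicle, WT BD10-2 and T41B BD10-2 slices, none past the threshold (edgeR adjusted p from 0.145 to 0.297). The stimulated slice had the lower level in 14 of the 14 mice with both slices, by 0.02 to 0.98 on the log2(CPM + 1) scale. With mouse as a replicate block, 1 of the 4 comparisons passed (T41B vehicle, log2 fold change -0.44, edgeR adjusted p = 0.0327). The 2 sham libraries of WT BD10-2 Mouse1565 gave 62.5 and 133 CPM for Timp2.

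In those 14 mice, the slices of the same animal moved the same way for 7 of the 10 genes. How many of all genes did so was not counted, so this number has no background to be set against. Mmp3, Mmp12, Mmp14, Mmp19, Timp1 and Adamts1 were higher in the stimulated slice of 14 of 14 mice, and Timp2 was lower in all 14. The median differences on the log2(CPM + 1) scale were 2.56 for Mmp3, 2.62 for Mmp12, 1.37 for Mmp14, 1.03 for Mmp19, 1.61 for Timp1 and 1.19 for Adamts1. Timp3 was higher in 12, Mmp9 in 6 and Mmp2 in 4 of the 14. The smallest Mmp3 rise, 1.03, was in WT vehicle Mouse1524, whose stimulated slice also had the lowest endothelial marker sum of all samples (50.6 CPM).

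**Figure D2:**
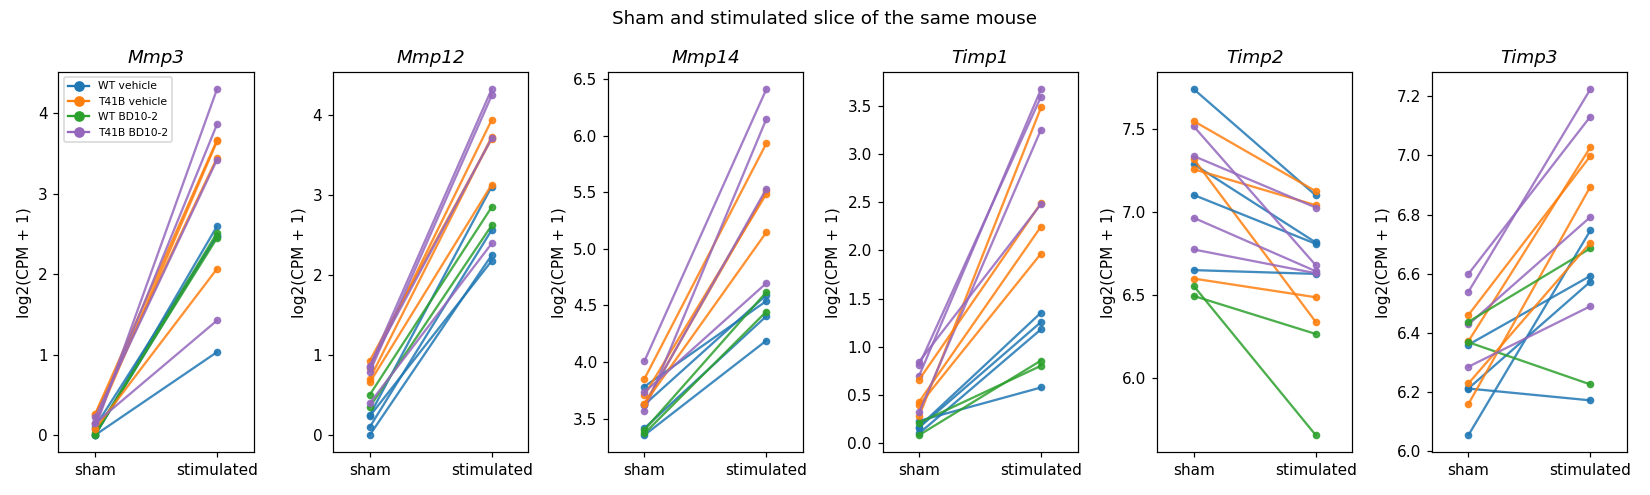
Log2(CPM + 1) of 6 genes (y axis, a separate range per panel) in the sham and the stimulated slice of the same mouse (x axis), with a line per mouse coloured by genotype and treatment, for 14 mice. All lines rise for Mmp3, Mmp12, Mmp14 and Timp1, all fall for Timp2, and 12 of 14 rise for Timp3.

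Cell-type markers moved with stimulation as well, and in bulk tissue fewer cells of a type and less RNA per cell cannot be told apart. The 6 microglial markers summed to 216 to 277 CPM in sham and 98.7 to 150 CPM in stimulated WT vehicle slices, and to 415 to 695 and 206 to 264 CPM in T41B vehicle slices. Of the 6, 5 fell in WT vehicle, T41B vehicle and WT BD10-2 slices and 6 in T41B BD10-2 slices. Markers of blood monocytes and neutrophils summed to at most 1.38 CPM in any sample, with Camp at 0 in 31, Ngp at 0 in 26 and S100a8 at 0 in 13 of 32 samples. Of 5 endothelial markers, 1, 2, 1 and 2 rose in the 4 comparisons and 0 fell, and their sum was higher in the stimulated slice of 12 of the 14 mice with both slices. Of all genes, 8.21%, 11.7%, 6.29% and 13.3% were called higher, so 1 or 2 of 5 is not far from the background. Astrocyte markers moved the same way as the induced genes: their sum was higher in the stimulated slice of all 14 mice, and 3, 3, 0 and 2 of the 5 markers rose and 0 fell. The astrocyte sums were 5904 to 6634 CPM in sham and 6508 to 8091 CPM in stimulated WT vehicle slices, and 5798 to 8097 and 8346 to 9340 CPM in T41B vehicle slices. Of 6 markers of hippocampal neurons, 1, 1, 2 and 3 fell, and their sum was lower after stimulation in 12 of the 14 mice. Of all genes, 4.10%, 9.83%, 2.58% and 9.52% were called lower, so 1 of 6 is not far from the background. Of 6 markers of fibroblasts of the meninges and vessels, 0, 1, 2 and 2 fell and 0 rose, and their sum was also lower in 12 of 14. The part of these cell types in the changes of the metalloproteinases was not tested.

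The second comparison set T41B against WT slices. In the sham slices only Mmp12 under vehicle, and Mmp19, Timp1 and Adamts1 under BD10-2, were called, and all were higher in T41B. In stimulated slices Mmp12, Mmp14, Timp1 and Adamts1 were higher in T41B under vehicle, and under BD10-2 the same 4 genes together with Mmp19 and Timp3. The counts were 1, 4, 3 and 6 of 10 for vehicle sham, vehicle stimulated, BD10-2 sham and BD10-2 stimulated slices, with 0 lower. Over all genes, 6.24%, 5.79%, 5.45% and 10.6% were called in either direction in these comparisons. In vehicle sham slices 973 of the 19478 genes (5%) were called higher, so 1 of 10 lies near the background there. In the latter 3, 4.74%, 4.31% and 8.19% were called higher, and in all 4, 1.24%, 1.05%, 1.14% and 2.36% were called lower. The medians of the 10 log2 fold changes were 0.39, 0.90, 0.55 and 0.98, against 0.00, -0.03, 0.01 and -0.02 over all genes.

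**Figure D3:**
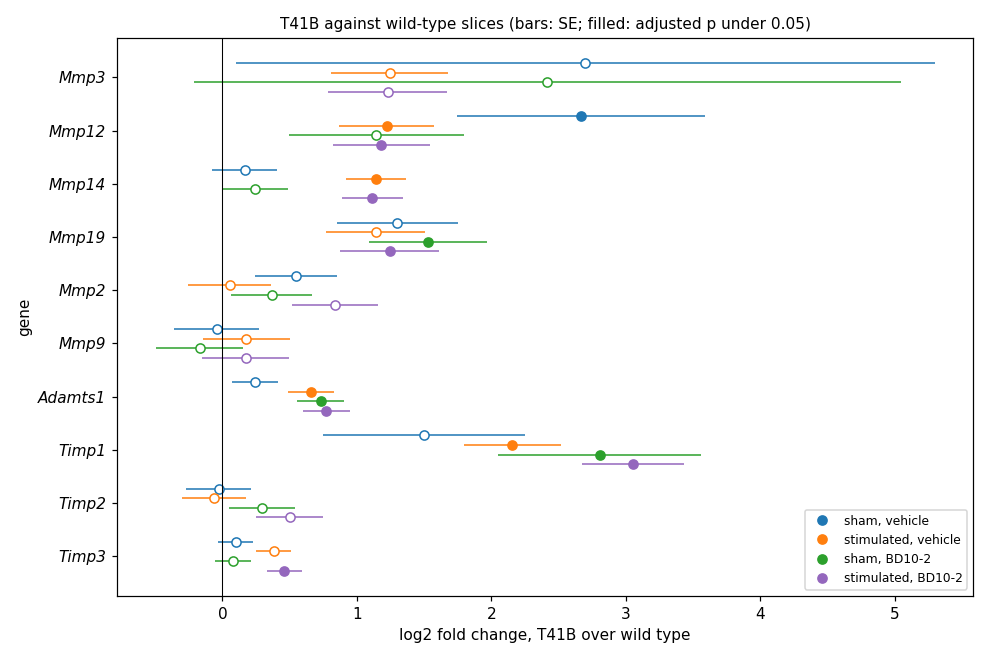
Log2 fold change of T41B over WT slices (x axis) for each gene (y axis), with the SE as bars, for sham and stimulated slices under vehicle and BD10-2. Filled points passed an edgeR adjusted p of 0.05; all filled points lie to the right of 0, and the bars of Mmp3 in sham slices are widest because WT sham slices held 1 count per group.

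Timp1 had the largest log2 difference between genotypes of the 10 genes in stimulated slices. After stimulation the T41B slices held 2.91 to 10.2 CPM under vehicle and 4.58 to 11.8 CPM under BD10-2, all above the WT slices (0.492 to 1.56 and 0.744 to 1.39 CPM). The log2 fold changes were 2.16 ± 0.36 (edgeR adjusted p = 0.000234) and 3.06 ± 0.38 (edgeR adjusted p = 5.21e-06). In sham slices they were 1.5 ± 0.75 under vehicle (edgeR adjusted p = 0.203) and 2.81 ± 0.75 under BD10-2 (0.00639). The ranges of the samples did not overlap in any of the 4 comparisons. The first stimulated library of Mouse1592 alone, at 0.915 CPM, lay within the stimulated WT BD10-2 range, and with only the first library of each same-label pair the log2 fold change was 3.08 (edgeR adjusted p = 0.000357).

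Mmp14 did not pass in sham slices, with log2 fold changes of 0.17 ± 0.24 and 0.24 ± 0.24, and was higher in stimulated T41B slices by 1.14 ± 0.22 (vehicle, edgeR adjusted p = 0.00134) and 1.12 ± 0.23 (BD10-2, edgeR adjusted p = 0.00157). For Adamts1 the differences in stimulated slices were 0.66 ± 0.17 (edgeR adjusted p = 0.0162) and 0.77 ± 0.18 (0.00399), and in sham slices 0.24 ± 0.17 (0.418) under vehicle and 0.73 ± 0.18 (0.0126) under BD10-2. Mmp12 was higher in T41B sham slices under vehicle by 2.67 ± 0.92 (edgeR adjusted p = 0.0336, 7 counts in all WT slices against 54 in all T41B slices) and in stimulated slices by 1.22 ± 0.35 (0.036) and 1.18 ± 0.36 (0.0395). Mmp19 differed by 1.53 ± 0.44 (0.0369) in sham and 1.25 ± 0.37 (0.0315) in stimulated BD10-2 slices, and Timp3 by 0.46 ± 0.13 (0.0228) in stimulated BD10-2 slices. Tmem198b, which shares exonic bases with Mmp19, was also higher in the stimulated BD10-2 comparison, by 0.40 ± 0.13 (0.0353).

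Mmp3 fell short of the threshold between genotypes. Its log2 fold changes in stimulated slices were 1.24 ± 0.44 under vehicle (edgeR adjusted p = 0.0996) and 1.23 ± 0.44 under BD10-2 (edgeR adjusted p = 0.0882), with overlapping ranges. With batch in the model the values were 1.34 (edgeR adjusted p = 0.00799) and 1.08 (edgeR adjusted p = 0.00758), and without Mouse1592 the BD10-2 value was 1.52 (edgeR adjusted p = 0.00469). In sham slices the T41B groups held 10 and 9 counts against 1 count in each WT group, ratios of 8.63 (95% counting interval 1.23 to 375) and 7.48 (1.04 to 328).

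Genotype could be compared inside 4 labelled batches for sham slices and 3 for stimulated slices. Batches A, C and D held 1 T41B against 1 WT mouse, and only batch I held 2 mice of a genotype. The sham and stimulated comparisons came largely from the same mice. Mmp3, Mmp12, Mmp19, Timp1 and Adamts1 were higher in T41B in all of these batches, and how many of all genes were so was not counted. Mmp14 was higher in 3 of 3 batches after stimulation and in 2 of 4 after sham treatment, and Timp3 in 3 of 3 and 2 of 4. The stimulated differences on the log2(CPM + 1) scale ran from 0.61 to 2.24 for Timp1, 0.61 to 0.94 for Mmp14 and 0.96 to 1.03 for Mmp3.

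Several genotype calls rested on few samples. Without the 6 samples with choroid plexus markers, which left 2 mice in the stimulated WT group and in each T41B vehicle group, 0 of 10 genes passed in either vehicle comparison. Over all genes the calls then fell from 1215 (6.24%) to 252 (1.28%) in sham and from 1128 (5.79%) to 230 (1.17%) in stimulated slices, so 0 of 10 is near the background. The stimulated values were then 1.81 for Timp1 (edgeR adjusted p = 0.0576), 0.81 for Mmp14 (0.298), 0.60 for Adamts1 (0.288) and 0.82 for Mmp12 (0.567), and the sham value of Mmp12 was 2.40 (0.483). Leaving out Mouse1565 removed the sham BD10-2 calls of Timp1, Adamts1 and Mmp19 (edgeR adjusted p = 0.104, 0.0582 and 0.126). Leaving out Mouse1590 removed those of Adamts1 (0.145) and Mmp19 (0.103). The Mmp19 call was lost as well without Mouse1564, Mouse1570, Mouse1571 or Mouse1592 (0.0556 to 0.182). With only the first library of each same-label pair, the sham BD10-2 call of Mmp19 was also lost (1.40, edgeR adjusted p = 0.0614), and those of Timp1 and Adamts1 passed. In stimulated BD10-2 slices, 2 of 10 genes were called without Mouse1565 (Timp1 and Mmp14, with Adamts1 at 0.71, edgeR adjusted p = 0.0504) and 3 without Mouse1563, Mouse1564 or Mouse1586 (Timp1, Mmp14 and Adamts1). The share of all genes called also fell, from 10.6% to 5.32% without Mouse1565 and to 9.9%, 7.02% and 8.41% without the other 3. The call of Timp3 was lost when any 1 of these 4 mice was left out (edgeR adjusted p from 0.0603 to 0.214) and with batch in the model (0.0786). The Mmp12 call was lost in 6 of 16 alternatives in vehicle sham slices, in 8 of 16 in vehicle stimulated and in 7 of 16 in BD10-2 stimulated slices, and the Mmp19 calls in 7 of 15 (BD10-2 sham) and 7 of 16 (BD10-2 stimulated). The Adamts1 call in vehicle stimulated slices was lost without Mouse1513, Mouse1524 or Mouse1551. A fit of only the stimulated BD10-2 groups did not call Mmp14 (edgeR adjusted p = 0.0682), Mmp12 (0.12) or Timp3 (0.135), and with batch in the model Timp1 in sham BD10-2 slices was at 2.39 (0.0528). Timp1 in stimulated BD10-2 slices passed under all 16 alternatives run, with log2 fold changes of 2.91 to 3.40. Microglial markers were higher in T41B as well, with 5, 2, 4 and 6 of 6 called higher in the vehicle sham, vehicle stimulated, BD10-2 sham and BD10-2 stimulated comparisons, and 0 lower. Astrocyte markers were also higher, with 2, 2, 2 and 4 of 5 called in that order. In stimulated slices the summed astrocyte markers of the genotypes did not overlap, at 6508 to 8091 CPM in WT and 8346 to 9340 CPM in T41B slices under vehicle and at 6947 to 7865 and 8047 to 10974 CPM under BD10-2. The part of both cell types in these differences was not tested.

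**Figure D4:**
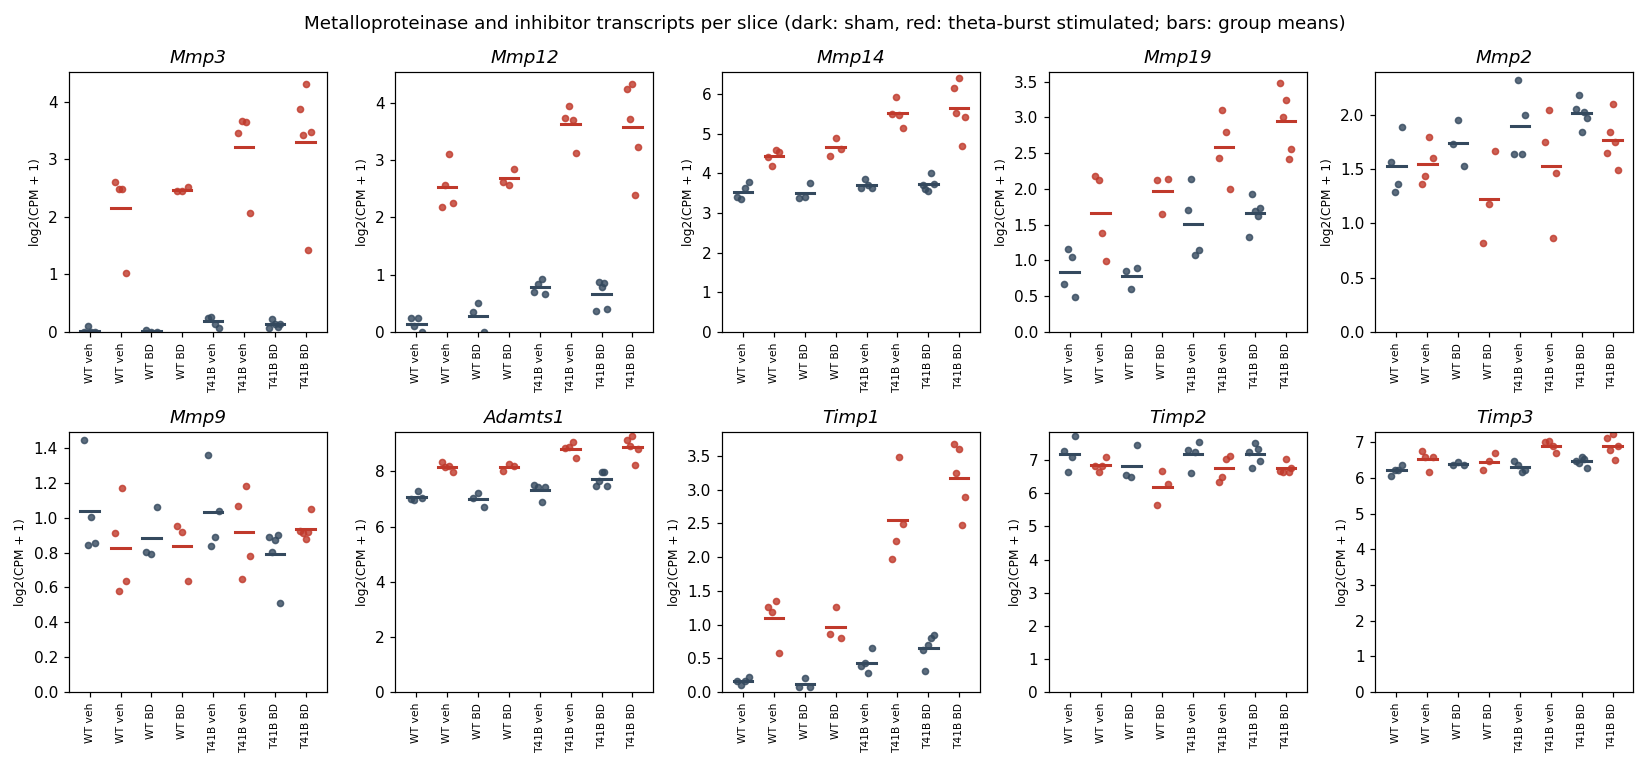
Log2(CPM + 1) of each of the 10 genes (y axis, a separate range per panel) in the 8 groups (x axis), a point per sample and a bar at the group mean, sham in dark and stimulated in red. The 2 stimulated T41B groups have the highest means of Timp1 and Adamts1, and Mmp2 and Mmp9 were not called in any comparison of stimulation.

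The third comparison, BD10-2 against vehicle, gave 0 called genes among the 10. It also gave 0 of 19478 genes overall (0% called) in each of the 4 combinations by edgeR, with 374, 1093, 431 and 759 genes at an unadjusted p under 0.05 in WT sham, WT stimulated, T41B sham and T41B stimulated slices. DESeq2 called 0, 25, 0 and 0 genes, none of them among the 10. In stimulated WT slices edgeR called 21 genes without Mouse1522 and 26 without Mouse1524, also none of the 10. Each batch held 1 treatment, so batch and treatment cannot be told apart. In stimulated T41B slices the difference for Timp1 was 0.66 (95% interval 0.03 to 1.29), for Mmp3 0.23 (-0.59 to 1.04), for Mmp12 0.08 (-0.59 to 0.75), for Mmp14 0.22 (-0.21 to 0.64) and for Adamts1 0.09 (-0.24 to 0.43) on the log2 scale. In stimulated WT slices, Timp2 differed by -0.59 (-1.13 to -0.06), and Timp1 by -0.24 (-1.11 to 0.63). Of the sham slices, T41B slices differed in Adamts1 by 0.40 (0.07 to 0.73). These intervals are not adjusted for the number of genes.

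Whether stimulation acted differently by genotype or by treatment was tested with interaction terms. None of the 10 genes passed, and edgeR called 0 of 19478 genes (0% called) in each of the 4 interactions, with 1683 and 846 at an unadjusted p under 0.05 for genotype under vehicle and BD10-2 and 337 and 526 for treatment in WT and T41B mice. DESeq2 called 1, 20, 0 and 1 genes, none of them among the 10. For genotype under BD10-2, edgeR called 79 genes without Mouse1592, 6 with the second library of each same-label pair, 2 without the first library of Mouse1592 and 2 with no count filter, and for genotype under vehicle it called 3 with mouse as a replicate block. None of the 10 genes passed in any of these fits. The response of Mmp14 was larger in T41B by 0.98 on the log2 scale under vehicle (95% interval 0.30 to 1.65, edgeR adjusted p = 0.446) and by 0.87 under BD10-2 (0.19 to 1.56, edgeR adjusted p = 0.918), so it failed the correction. For Timp1 the differences were 0.66 (-1.05 to 2.36) and 0.25 (-1.48 to 1.97), and for Timp3 0.28 (-0.09 to 0.65) and 0.38 (0.00 to 0.76). The larger number of called genes in T41B slices is therefore not shown to be a larger response.

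Genes that activate, anchor or oppose the metalloproteinases were read from lists chosen by function. Counts are given for WT vehicle, T41B vehicle, WT BD10-2 and T41B BD10-2 slices in that order, against the all-gene shares called above. In the plasminogen activation list, 7, 7, 6 and 7 of 9 tested genes rose and 0, 0, 0 and 1 fell, with median log2 fold changes of 1.71, 1.17, 1.04 and 1.40. Plau, the urokinase that makes plasmin, rose by 3.49 ± 0.23, 2.36 ± 0.21, 3.38 ± 0.25 and 2.63 ± 0.18. Its receptor Plaur rose by 2.11 ± 0.25, 1.77 ± 0.23, 2.01 ± 0.27 and 1.94 ± 0.20. Plau and Plaur were thus both called higher in each combination. Between genotypes, 6, 3, 7 and 6 of the 9 were higher in T41B in vehicle sham, vehicle stimulated, BD10-2 sham and BD10-2 stimulated slices. In the same order, 1, 1, 0 and 1 were lower. Of all genes, 5%, 4.74%, 4.31% and 8.19% were called higher in these genotype comparisons. The shares called lower were 1.24%, 1.05%, 1.14% and 2.36%.

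Of 10 genes for activation, anchoring and clearance, 6, 6, 4 and 6 rose and 0, 2, 1 and 2 fell after stimulation. Cd44, a hyaluronan receptor that anchors Mmp9 at the cell surface, rose by 2.99 ± 0.35, 2.97 ± 0.32, 3.43 ± 0.40 and 3.03 ± 0.29. Thbs1, a thrombospondin that binds metalloproteinases, rose by 2.92 ± 0.47, 3.83 ± 0.42, 2.38 ± 0.51 and 4.70 ± 0.38. Furin, the convertase that activates Mmp14 and named here after its values were seen, averaged 52.8 ± 6.89 CPM (SD, n = 4) in sham and 72.3 ± 5.38 CPM in stimulated WT vehicle slices and 57.8 ± 1.96 and 118 ± 13.5 CPM in T41B vehicle slices, and was called in all 4 comparisons. Bsg, the inducer of metalloproteinases also called CD147, had log2 fold changes of -0.33, -0.42 and -0.34 and thus fell in T41B vehicle, WT BD10-2 and T41B BD10-2 slices.

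Among 11 tested metalloproteinases outside the 10 genes, 2, 3, 2 and 3 rose and 0, 0, 0 and 1 fell. Besides Mmp13 and Mmp10 these included Mmp25, a membrane-anchored leukocyte enzyme, in T41B slices (2.88 ± 0.47 under vehicle and 3.12 ± 0.39 under BD10-2). Of 17 tested ADAMTS proteases 2, 5, 3 and 4 rose and 0, 1, 0 and 2 fell. Adamts4, an aggrecanase like Adamts1, rose by 1.59 ± 0.21, 2.07 ± 0.21, 1.69 ± 0.24 and 2.34 ± 0.19, and Adamts9 by 1.41 ± 0.31, 2.28 ± 0.31, 1.6 ± 0.36 and 2.22 ± 0.28. Of 8 tested ADAM sheddases 2, 2, 0 and 2 rose. Of 3 other inhibitors, A2m, a broad protease trap, rose by 2.20 ± 0.29, 1.8 ± 0.26, 2.27 ± 0.32 and 1.75 ± 0.23, and Timp4 and Reck were not called.

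Genes of matrix substrates were counted in the same way. The first list also holds hyaluronan synthases, among them Has2, which are not substrates. Of 15 perineuronal and interstitial matrix genes, 3, 5, 3 and 4 rose and 1, 0, 0 and 0 fell, with medians of 0.02, 0.22, 0.01 and 0.11. Has2, which makes hyaluronan, rose by 3.83 ± 0.40, 3.68 ± 0.32, 3.51 ± 0.38 and 3.98 ± 0.28. Tnc, or tenascin C, rose by 2.72 ± 0.30, 3.97 ± 0.30, 2.98 ± 0.33 and 3.77 ± 0.27, and Acan, or aggrecan, by 0.92 ± 0.26, 1.82 ± 0.26, 1.89 ± 0.29 and 2.17 ± 0.23. Of 13 basement membrane genes, 1, 9, 0 and 8 rose and 0 fell. Spp1, the osteopontin gene and a substrate of Mmp3, was higher in T41B slices in all 4 genotype comparisons, by 3.55 ± 0.47, 2.60 ± 0.44, 3.36 ± 0.45 and 4.01 ± 0.47 for vehicle sham, vehicle stimulated, BD10-2 sham and BD10-2 stimulated slices.

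The genes with the most similar pattern were found by Pearson's r of log2 expression over the 32 samples, which share their groups, mice and batches. For Mmp3 they were Csf3 (r = 0.98), Tnc (0.98) and Clec2d (0.97). Lilr4b, Cxcl2 and Oasl1 (each 0.98) came closest to Mmp12, and Cd40 (0.98), Ifit2 (0.98) and Pfkfb3 (0.97) to Mmp14. Timp1 lay nearest to Igsf10 (0.98), Abcb1b (0.97) and Pde4b (0.96), Mmp19 to Bcl3, Lcn2 (each 0.93) and A2m (0.92), and Adamts1 to Sgpl1, Itprid2 and Sbno2 (each 0.98). The highest r with Mmp9 among the genes that averaged at least 1 CPM was 0.53 (Fam196a). Within the 10 genes, r was 0.96 between Mmp3 and Mmp12, 0.95 between Timp1 and Adamts1, and -0.52 between Mmp3 and Timp2.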

How the data were processed

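The values are expected counts, estimated by RSEM and deposited by the authors as 1 unscaled, partly fractional value per gene and library. RNA (200 ng) was depleted of ribosomal RNA and made into stranded libraries, per the labels' protocols. The submitters' processing notes name cutadapt 1.8.1, STAR 2.7.6a, RSEM 1.3.1, featureCounts 1.6, SAMtools 1.11 and build GRCm38.p6 (mm10), and the strand setting is not given in the sources used here. RSEM divides reads between similar transcripts, so counts of close paralogs are uncertain.

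Counts were rounded, libraries with the same mouse and slice labels were added (4 pairs), and genes were filtered with filterByExpr (minimum count 10). All 8 groups entered 1 edgeR 4.0.16 quasi-likelihood F test (R 4.3.3) with TMM scaling (factors 0.910 to 1.063) and Benjamini-Hochberg adjustment over 19478 genes. SE and 95% intervals are of the log2 fold change in that fit. Annotation came from GENCODE on GRCm38, and 55154 gene identifiers matched a symbol. No gene of the 10 fell under the count filter, so no separate test was run for low genes. Mmp3, with 21 counts over all sham and 2301 over all stimulated slices, passed the filter only through its stimulated slices.

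The 14 mice with both slices are paired by the mouse numbers in the labels. Deviations from the group means of same-mouse slices correlated at 0.20 on average. Alternatives were other scaling (RLE), no filter, DESeq2 1.42.0, either library of a same-label pair, a mouse block, a batch term, only the groups compared and each mouse left out. Leaving out the samples with choroid plexus markers, or the first library of Mouse1592, was chosen after seeing the data, as was the limit of 100 CPM for the summed choroid plexus markers. The members and gene lists were chosen with earlier results of these data known. Named list genes were up to 3 per list, direction and comparison with the largest change among called genes of at least 1 CPM, and the 3 genes most like each member had to average 1 CPM. Of the genes that the rule for lists picks, 1 is not reported here.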

Additional observations from a re-analysis of the deposited data

Results flagged for a closer look

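In 60 combinations of a gene and a group of 4 or 5 samples, the gap of the highest or lowest sample to its neighbour was set against the group's range, and 4 samples stood apart, where chance gives about 1 in 20. Mmp3 in the sham WT vehicle slice of Mouse1513 was at 0.0721 CPM, which is 1 count, against 0 in the other 3 mice. Mmp3 in the stimulated WT vehicle slice of Mouse1524 was at 1.04 CPM, against 4.57 to 5.05 CPM in the other 3. Mmp9 was at 0.424 CPM in the sham T41B BD10-2 slice of Mouse1592, against 0.742 to 0.867 CPM, and at 1.07 CPM in the stimulated T41B BD10-2 slice of Mouse1572, against 0.839 to 0.897 CPM.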

How the results depend on the processing

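No value changed direction among the called results. The count of genes called after stimulation stayed within 1.5 times its main value under every alternative, with 4 to 6 (WT vehicle), 6 to 7 (T41B vehicle), 5 to 6 (WT BD10-2) and 7 (T41B BD10-2) of 10 when a mouse was left out, and 5 in both vehicle comparisons without the samples with choroid plexus markers. The shares of all genes called without a mouse were 6.38% to 8.84%, 13.6% to 18.8%, 3.82% to 6.58% and 16.4% to 22.7% in that order. Without the samples with choroid plexus markers they were 13% in WT vehicle and 6.02% in T41B vehicle slices. With mouse as a replicate block the count was 7, 8, 6 and 7 of 10, against 20.1%, 29.5%, 6.6% and 23.9% of all genes. The genotype counts moved more. In vehicle sham slices 1 gene was called, DESeq2 called 2, leaving out a mouse gave 0 to 2, and leaving out the choroid plexus samples gave 0. The all-gene shares there were 6.24%, 9.1%, 2.86% to 10.6% and 1.28% in that order, so 0 or 1 of 10 lies near the background. In vehicle stimulated slices 4 were called, leaving out a mouse gave 2 to 6, and leaving out the choroid plexus samples gave 0, with 2 mice in 3 of the groups. The all-gene shares were 5.79%, 3.49% to 6% and 1.17%. In BD10-2 sham slices 3 were called, and leaving out a mouse gave 0 to 3. The all-gene shares were 5.45% and 2.43% to 5.6%, so 0 or 1 of 10 lies near the background here too. In BD10-2 stimulated slices 6 were called, a fit of only the groups compared gave 3, and leaving out a mouse gave 2 to 7. The all-gene shares were 10.6%, 6.78% and 5.32% to 12.6%. The cause of these shifts was not tested. Without the first library of Mouse1592 the counts were 7 (stimulation) and 6 (genotype), as with it, against 24.6% and 12.1% of all genes. Treatment and interaction counts were 0 of 10 in every alternative run. For 9 values an alternative gave no adjusted p. Over all genes, RLE and DESeq2 scaling moved the median log2 fold change by less than 0.1. Mmp3, Mmp10 and Timp1 in sham slices are limited by depth, with 0 to 21 counts per sample.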

Other observations

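Further genes of the fixed lists differed between genotypes. Lcn2, a lipocalin that binds Mmp9, was higher in T41B slices by 1.87 ± 0.35 (SE, edgeR adjusted p = 0.000777) in vehicle stimulated, 2.67 ± 0.49 (0.000458) in BD10-2 sham and 2.30 ± 0.35 (7.72e-05) in BD10-2 stimulated slices on the log2 scale. Serpinf2, the plasmin inhibitor, was higher in T41B slices in all 4 genotype comparisons, by 1.1 ± 0.26 to 2.16 ± 0.34. Mmp25 was higher in stimulated T41B slices, by 2.56 ± 0.45 under vehicle and 2.85 ± 0.44 under BD10-2. Serpini1, or neuroserpin, a neuronal inhibitor of tissue plasminogen activator, was lower in T41B slices by 0.52 to 0.63 in vehicle slices. Thbs2 was higher in stimulated T41B slices by 1.95 ± 0.33 under vehicle and 2.17 ± 0.34 under BD10-2.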
